A study of Homo sapiens with 4 samples.

Results

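The BCL2 family genes examined here were BCL2, BCL2L1, MCL1, BAX, BAK1, BBC3, PMAIP1, BCL2L11, BID and BAD, 10 of 19663 protein-coding genes, taken by name as core regulators of apoptosis, a choice made with earlier results of these data known. Binding of the transcription factor c-MYC at these genes was read from the peak lists of a ChIP-seq experiment, in which DNA pulled down with an antibody is sequenced and places of excess reads are called as peaks. The cells were MIA PaCa-2, an established human line of pancreatic ductal adenocarcinoma (PDAC), grown in DMEM with 10% serum and exposed for 8 h to DMSO (the solvent), AMG510 at 100 nM or the MEK inhibitor trametinib at 10 nM. There were 4 libraries, with 1 c-MYC antibody library for each treatment and 1 IgG library, made with non-specific antibody, for DMSO. Because no group was replicated, no test between treatments was possible, and each contrast below sets 1 library beside another.

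Proteins of the BCL2 family decide whether the outer membrane of the mitochondrion stays intact. BAX and BAK1 are the effectors that form pores in it. BCL2, BCL2L1 (BCL-XL) and MCL1 hold the effectors back, and the BH3-only proteins, among them BCL2L11 (BIM), BID, BBC3 (PUMA), PMAIP1 (NOXA) and BAD, sense stress and release or activate them. MYC drives growth and is also known to sensitize cells to apoptosis. ERK signalling, which lies downstream of MEK, is known to promote the degradation of BIM protein.

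A promoter peak was defined as one whose summit, its highest point, lies no more than 1 kb from a start site (TSS) of any protein-coding transcript. In DMSO, 5 of the 10 genes had a c-MYC promoter peak (BCL2, BCL2L1, BCL2L11, BID and BBC3), where 24.2% of all protein-coding genes had one. In AMG510 there were 4 (BCL2, MCL1, BCL2L11 and BID), against 15.3% of all genes, and in trametinib 3 (BCL2, BCL2L11 and BID), against 11.8%. The IgG list had none at these genes and one at 0.559% of all genes. A promoter peak was thus called at BCL2, BCL2L11 and BID in each of the 3 c-MYC libraries, at BCL2L1 and BBC3 in DMSO alone, and at MCL1 in AMG510 alone. A missing call does not show that binding was absent. BAX, BAK1, PMAIP1 and BAD had no promoter peak in any library. The fold enrichment is the ratio of the summit pileup to its local background, with 1 tag added to each. With this ratio required to be above 5, 3 of these genes remained in DMSO, 2 with AMG510 and 1 with trametinib. All genes gave 12.1%, 5.75% and 4.87%.

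**Figure D1:**
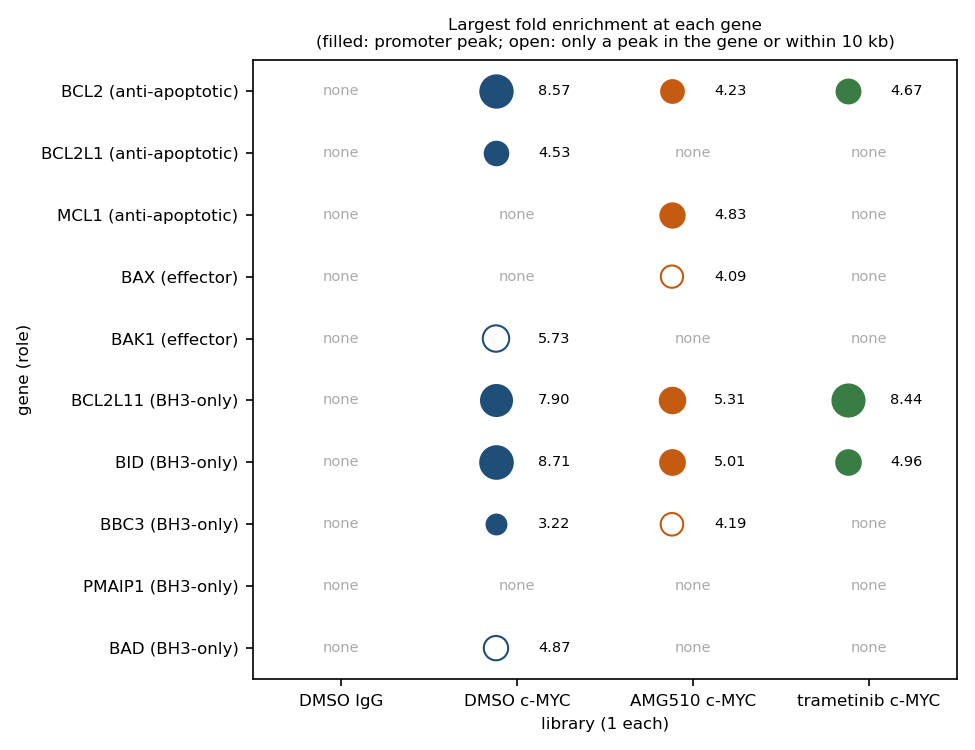
Fold enrichment of the largest peak at each gene (rows, with the role of the protein) in each of the 4 libraries (columns). Filled circles are promoter peaks, open circles are genes with a peak only elsewhere in the gene or within 10 kb, and circle area scales with the printed value. The largest values stand at BID (8.71) and BCL2 (8.57) in DMSO and at BCL2L11 in trametinib (8.44), and the IgG column is empty.

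The libraries entered peak calling at similar depth, between 22700000 and 24800000 tags as recovered from the peak values, and peaks rested on few tags, with a median summit pileup of 10 to 13 across the lists. Where the local background equalled the genome-wide one, 7 or 8 tags sufficed for a call. Intervals given with a pileup are exact Poisson 95% intervals. They cover counting error only and are too narrow, since both mates of a read pair can count as tags. All coordinates are on GRCh38.

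BCL2, the founding anti-apoptotic member, lies on the minus strand of chromosome 18 (63123346 to 63320128). Its DMSO peak, chr18:63320136-63320690, began 8 bp outside the annotated gene, with the summit 402 bp upstream of the outermost start and 761 bp upstream of the canonical one. The summit held 32 tags (interval 21.9 to 45.2) in DMSO. In AMG510 the nearest summit, 16 bp away, held 10 tags (4.80 to 18.4), and in trametinib the summit was 7 bp away with 15 tags (8.40 to 24.7). Both drug values were below DMSO, with a log2 pileup ratio of −1.68 in AMG510 (exact 95% interval for counting error, −2.87 to −0.62) and −1.09 in trametinib (−2.08 to −0.17). Over all DMSO promoter peaks overlapped by a drug peak, the median of this ratio was −0.48 in AMG510 and −0.44 in trametinib. The trametinib interval at BCL2 includes its median. These ratios are not scaled for depth or for the length to which tags are extended. Scaled for both, they were −1.53 and −1.02 at BCL2. The fold enrichment was 8.57 in DMSO, 3.88 in AMG510 and 4.67 in trametinib, ranking above 96.9%, 22.2% and 55.4% of the respective lists. The AMG510 peak was thus a weak call. AMG510 had a further peak 194 bp upstream of the canonical TSS, with 11 tags (5.49 to 19.7) and a fold enrichment of 4.23, inside the first exon of a longer BCL2 transcript. No other peak was called in the 197 kb of the gene or within 10 kb in any library. Among genes over 100 kb the share with any such peak, promoter peaks included, was 50.2% for DMSO, 54.6% for AMG510, 33.2% for trametinib and 21.5% for IgG. The 151 bases around the DMSO summit (chr18:63320455-63320605, minus strand) are shown because the peak returned here in each c-MYC library without a canonical E-box, CACGTG, the sequence that MYC binds with its partner MAX. Capitals mark the noncanonical form CACGCG and its reverse complement CGCGTG.
BCL2: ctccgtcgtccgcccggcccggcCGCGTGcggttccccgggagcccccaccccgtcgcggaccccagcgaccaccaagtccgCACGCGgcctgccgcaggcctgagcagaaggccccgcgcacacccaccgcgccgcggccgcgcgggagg

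BCL2L1 encodes BCL-XL and lies on chromosome 20 (31664452 to 31723989, minus strand). A promoter peak, chr20:31722737-31723014, was present in DMSO with its summit 28 bp upstream of the canonical TSS, 15 tags (8.40 to 24.7) and 4.53-fold enrichment, which ranks it above 47.4% of peaks in its list. The long noncoding gene ABALON overlaps this summit. A second DMSO peak 6624 bp outside the gene, with 12 tags (6.20 to 21.0), lay 6699 bp from the nearest BCL2L1 start. Neither drug library had a peak at either place. In both drug lists, peaks with a background within 10% of that at the promoter were called from 9 tags on, which lies inside the DMSO interval after scaling to each library (7.55 to 22.3 for AMG510 and 7.99 to 23.5 for trametinib). A loss of binding at BCL2L1 was therefore not detectable at this depth.

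MCL1, a short-lived anti-apoptotic protein, showed the opposite layout. The AMG510 list held a peak at chr1:150579322-150579508, and the DMSO, trametinib and IgG lists held none in the gene or within 10 kb. The summit lay in the coding part of exon 1, 182 bp downstream of the canonical TSS, with 18 tags (10.7 to 28.4) and 4.83-fold enrichment, which ranks it above 69.4% of peaks in its list. Scaled to the DMSO library the interval ran from 11.9 to 31.6 tags, and DMSO peaks of like background were called from 11 tags on. For trametinib these values were 11.3 to 30.1 and 11 tags. These bounds differ by less than 1 tag and leave out the counting error of the library without the peak, so a difference at MCL1 was not detectable at this depth. The only E-box within 1 kb of the MCL1 start, 588 bp upstream, lay outside the peak.

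The effector genes had no c-MYC peak at their starts. At BAX (chromosome 19, 48954815 to 48961798, plus strand) this was so although its promoter holds 4 canonical E-boxes in the 150 bases before the TSS, at 138, 93, 45 and 14 bp upstream. The stretch chr19:48954725-48954874 is shown with the E-boxes in capitals because no other gene of the 10 has more than 2 within 1 kb of its start.
BAX: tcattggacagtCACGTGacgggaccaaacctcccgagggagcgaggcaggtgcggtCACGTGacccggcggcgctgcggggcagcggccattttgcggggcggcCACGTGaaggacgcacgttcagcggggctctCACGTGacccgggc

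Across all protein-coding genes 52 have 4 or more E-boxes in this window. Of these, 40.4% had a promoter peak in DMSO, 26.9% with AMG510 and 30.8% with trametinib. The cut-off of 4 was chosen after the BAX sequence was seen. BAX was thus among the larger share of such genes with no DMSO peak. The closest peak to BAX was in AMG510, chr19:48967679-48967889, with 14 tags (7.65 to 23.5). It lay 5881 bp beyond the end of the gene and 2426 bp from the start of FTL, the nearest protein-coding start, and had an E-box 6 bp from its summit. BAK1 (chromosome 6, 33572547 to 33580293, minus strand) has no canonical E-box within 1 kb of its start. Its only peak, chr6:33571150-33571436 in DMSO, lay 1111 bp beyond the end of the gene, inside GGNBP1, with 16 tags (9.15 to 26.0) and a fold enrichment of 5.73.

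**Figure D2:**
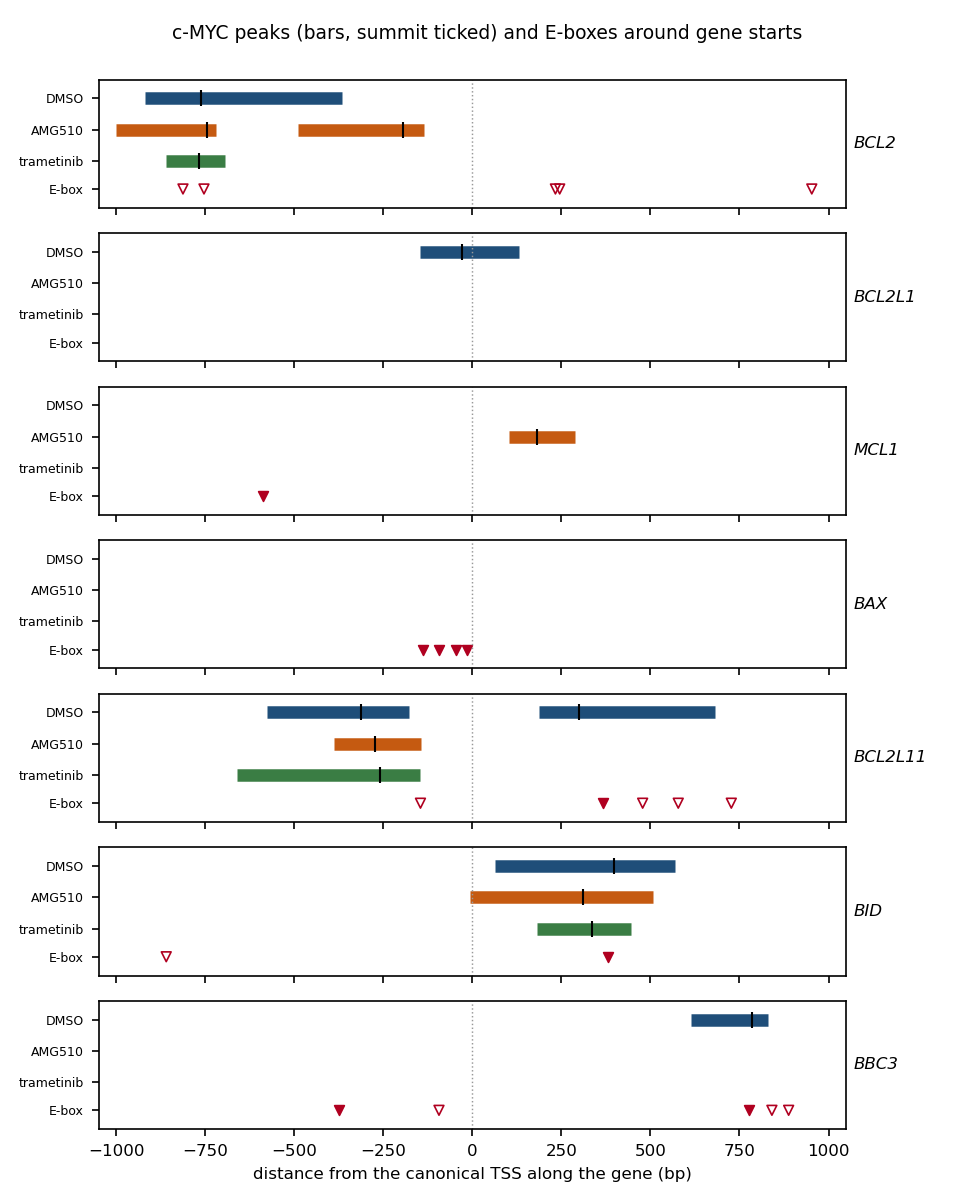
Position of c-MYC peaks within 1 kb of the canonical TSS (0 on the x axis, in bp along the gene) for 7 genes. Bars span each peak in the DMSO, AMG510 and trametinib lists, ticks mark summits, filled triangles canonical E-boxes and open triangles CACGCG on either strand. The BCL2, BCL2L11 and BID peaks align across the libraries, and the 4 E-boxes of BAX have no peak above them.

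BCL2L11 encodes BIM and lies on chromosome 2 (111119378 to 111168444, plus strand). It carried the most tags of the 10 genes. Upstream of the canonical TSS a peak was called in each c-MYC library, with the summit 314 bp upstream in DMSO, 274 bp in AMG510 and 259 bp in trametinib. The summit held 42 tags (30.3 to 56.8) in DMSO, 21 (13.0 to 32.1) in AMG510 and 34 (23.5 to 47.5) in trametinib. The log2 pileup ratio to DMSO was −1.0 in AMG510 (−1.83 to −0.21) and −0.30 in trametinib (−1.0 to 0.38). Both intervals include the median over all shared promoter peaks, −0.48 in AMG510 and −0.44 in trametinib. The difference between the drugs was not tested. The fold enrichment was 7.90 in DMSO, 5.31 in AMG510 and 8.44 in trametinib, ranking above 95.8%, 83.8% and 97.8% of the respective lists. The trametinib peak, chr2:111120253-111120768, was also the widest of the 3 at 516 bp, beside 401 bp in DMSO and 245 bp in AMG510. On the pileup both drug libraries were lower than DMSO, and on the fold enrichment trametinib was slightly higher, with a local background of 3.15 tags against 4.44 in DMSO.

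DMSO held a second BCL2L11 peak in intron 1, chr2:111121101-111121595, with its summit 300 bp downstream of the TSS, 23 tags (14.6 to 34.5) and a fold enrichment of 4.50. Neither drug list had a peak there. Peaks of like background were called from 13 tags on in both drug lists, beside scaled intervals of 13.1 to 31.0 tags for AMG510 and 13.9 to 32.8 tags for trametinib. The call limit thus lay below both intervals, but by less than 1 tag. The intervals also leave out the counting error of the library without the peak, so a loss was not detectable here either. The sequences around the summits are shown because they differ in the motif. The upstream stretch (chr2:111120525-111120675) has no E-box, and the intronic one (chr2:111121189-111121339) has 1, in capitals, 68 bp from the DMSO summit.
BCL2L11 upstream peak: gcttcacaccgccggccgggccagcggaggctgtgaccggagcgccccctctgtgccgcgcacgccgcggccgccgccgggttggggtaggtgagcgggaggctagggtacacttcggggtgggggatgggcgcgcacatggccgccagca
BCL2L11 intron 1 peak: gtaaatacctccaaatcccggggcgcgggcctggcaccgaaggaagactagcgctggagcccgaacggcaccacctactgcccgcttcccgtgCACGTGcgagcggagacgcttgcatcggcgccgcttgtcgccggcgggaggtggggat

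Another DMSO peak near BCL2L11 lay 4512 bp before the gene, with 10 tags (4.80 to 18.4), at the start of the long noncoding RNA ACOXL-AS1. The long noncoding gene MIR4435-2HG spans all of these peaks.

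BID, whose protein links death receptors to the mitochondrion, lies on chromosome 22 (17734138 to 17774770, minus strand). It had the peak of largest fold enrichment among the 10 genes in DMSO, 8.71, with 35 tags (24.4 to 48.7). AMG510 gave 5.01 and 17 tags (9.90 to 27.2), and trametinib 4.96 and 19 tags (11.4 to 29.7). Both drug values lay below the DMSO value, with a log2 pileup ratio of −1.04 in AMG510 (−1.97 to −0.17) and −0.88 in trametinib (−1.77 to −0.04). These intervals hold no spread between separate cultures. Both include the median over all shared promoter peaks, −0.48 in AMG510 and −0.44 in trametinib. Scaled for depth and extension length, the ratios were −0.89 in AMG510 and −0.81 in trametinib. The trametinib bound of −0.04 rests on unscaled pileups, so no fall is read from it. The summits were in intron 1 of the canonical transcript, 398 bp downstream of its start in DMSO, 311 bp in AMG510 and 337 bp in trametinib, and within 142 bp of a shorter transcript's start. A single canonical E-box lies in the peak of each library, 13 bp from the summit in DMSO, 69 bp in AMG510 and 43 bp in trametinib. It is shown in capitals in the stretch chr22:17774021-17774146 (minus strand), as the one E-box of this set that stayed under a peak in all 3 c-MYC libraries.
BID: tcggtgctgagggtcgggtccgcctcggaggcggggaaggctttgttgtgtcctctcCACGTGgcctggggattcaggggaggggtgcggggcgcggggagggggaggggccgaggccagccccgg

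BBC3, which encodes PUMA, lies on chromosome 19 (47220822 to 47232766, minus strand). Its DMSO promoter peak, chr19:47230370-47230584, had its summit 786 bp downstream of the canonical TSS in intron 1. It was the promoter peak nearest to the 1 kb limit, and the closest of the peaks beyond that limit was that at BAD, 2301 bp from a BAD start. The BBC3 summit held 17 tags (9.90 to 27.2) over a high local background of 4.58 tags, so its 3.22-fold enrichment exceeded only 1.71% of peaks in DMSO. An E-box nonetheless lay 4 bp from the summit, the closest of any peak here, and the sequence (chr19:47230338-47230488, minus strand) is shown for this.
BBC3: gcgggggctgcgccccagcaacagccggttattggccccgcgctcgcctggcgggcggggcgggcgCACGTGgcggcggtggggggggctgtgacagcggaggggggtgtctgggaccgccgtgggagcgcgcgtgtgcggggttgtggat

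Neither drug list had a peak at this position. Peaks of like background were called from 13 tags on in AMG510 and from 15 on in trametinib, inside the scaled DMSO intervals (8.91 to 24.5 and 9.42 to 25.9), so a loss was not detectable at this depth. AMG510 had another BBC3 peak in intron 3, 4838 bp downstream of the canonical TSS, with 17 tags (9.90 to 27.2) and a fold enrichment of 4.19. It lies near the starts of MIR3190 and MIR3191 and of a BBC3 transcript that is not annotated as protein-coding, and with all transcripts counted AMG510 would have 5 genes with a promoter peak. The share of all genes with all transcripts counted was not computed.

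PMAIP1 (chromosome 18, 59899996 to 59904305, plus strand), which encodes NOXA, had no peak in the gene or within 10 kb in any library and no E-box within 1 kb of its start. At BAD (chromosome 11, 64269830 to 64284704, minus strand) the only peak, in DMSO with 15 tags (8.40 to 24.7) and a fold enrichment of 4.87, lay 169 bp beyond the end of the gene. Its summit was 495 bp from the start of GPR137 and thus at the promoter of that neighbour.

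**Figure D3:**
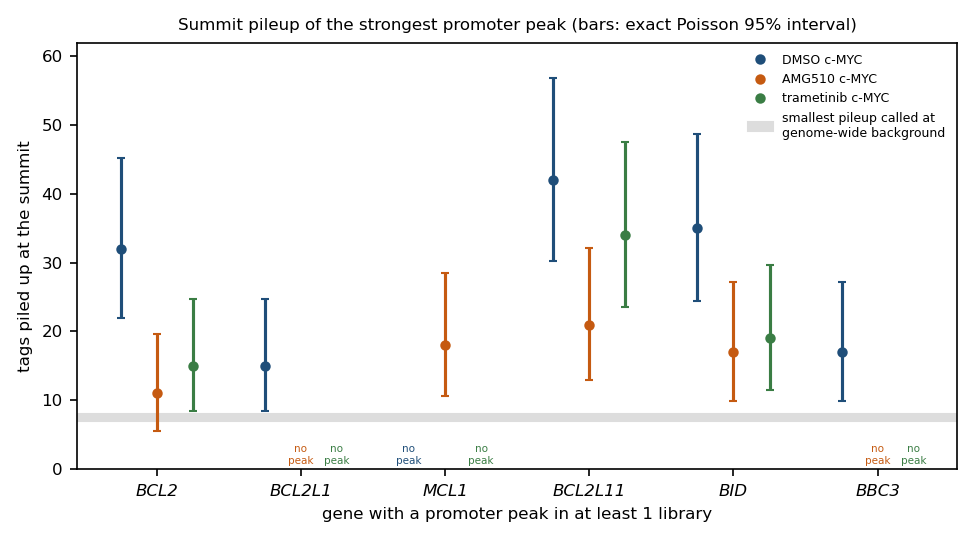
Tags piled up at the summit of the strongest promoter peak of each gene (y axis), by fold enrichment within a library, with exact Poisson 95% intervals, for the 6 genes with a promoter peak in any library, where the AMG510 point of BCL2 is its peak of 11 tags. The grey band marks the smallest pileup called at the genome-wide background, 7 to 8 tags. For BCL2, BCL2L11 and BID the DMSO point is the highest, at 32, 42 and 35 tags, and for BCL2L1, BBC3 and MCL1 only 1 library has a value.

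The 3 genes with a peak in each c-MYC library were then set beside all shared sites. AMG510 and trametinib are each compared with the same DMSO library, so their values are not independent of each other. The log2 ratio of fold enrichment to DMSO was −1.14 at BCL2, −0.57 at BCL2L11 and −0.80 at BID in AMG510. Over all 1530 DMSO promoter peaks overlapped by an AMG510 peak the median was −0.22, with quartiles of −0.49 and 0.04. In trametinib it was −0.88 at BCL2, 0.10 at BCL2L11 and −0.81 at BID, where the median of 1279 shared promoter peaks was −0.23 with quartiles of −0.50 and 0.03. These medians cover DMSO peaks of any strength, whereas the BCL2, BCL2L11 and BID peaks had a fold enrichment above 96.9%, 95.8% and 97.2% of the DMSO list. Peaks of like strength were not compared, so the values are given side by side only. The summits shifted by 16, 40 and 87 bp in AMG510 and by 7, 55 and 61 bp in trametinib at BCL2, BCL2L11 and BID, beside medians of 78 and 63 bp over all shared promoter peaks.

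Of the 10 DMSO peaks in or within 10 kb of the genes, an AMG510 peak overlapped 3 and a trametinib peak 3, the BCL2 peak, the upstream BCL2L11 peak and the BID peak in each case. Among all DMSO peaks the shares were 20.5% for AMG510, 17.1% for trametinib and 2.00% for IgG, which overlapped none of the 10. These shares cover peaks of every kind, whereas all 3 overlapped peaks here were among the 6 DMSO promoter peaks. Of all 4617 DMSO promoter peaks, an AMG510 peak overlapped 1530 and a trametinib peak 1279. By gene, 3 of the 5 with a DMSO promoter peak also had one under either drug, beside 43.0% of all such genes for AMG510 and 35.2% for trametinib. Counting any peak in the gene or within 10 kb, DMSO had one at 7 genes, AMG510 at 6, trametinib at 3 and IgG at 0, where all protein-coding genes gave 38.9%, 33.8%, 22.9% and 7.89%. In all there were 20 such peaks, and 14 of them were promoter peaks. These totals pool the c-MYC libraries, so a site called in several of them counts more than once. By library, 6 of 10 were promoter peaks in DMSO, 5 of 7 in AMG510 and 3 of 3 in trametinib. All protein-coding genes gave 4617 of 7195, 2806 of 6665 and 2124 of 3815.

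The E-box was present within 100 bp of the summit in 3 of the 6 DMSO promoter peaks (BCL2L11 in intron 1, BID and BBC3), in 1 of 5 in AMG510 and in 1 of 3 in trametinib (BID in both). Among all promoter peaks the share was 16.9% for DMSO, 14.4% for AMG510, 17.3% for trametinib and 4.59% for IgG. Allowing CACGCG on either strand added BCL2 in each c-MYC library. Among all promoter peaks, the share with this form near the summit was 23.3% for DMSO, 21.1% for AMG510, 22.2% for trametinib and 4.59% for IgG. Within 1 kb of the canonical TSS, 5 of the 10 genes hold a canonical E-box (MCL1, BAX, BCL2L11, BID and BBC3), beside 29.2% of all protein-coding genes, and 4 hold the noncanonical form, beside 41.5%. The base composition of the 14 promoter peaks was high in G and C. The median was 75.6% over 100 bp on either side of the summit, with a range of 64.2% to 82.6%. These 14 include repeated calls of the same sites in different libraries. The 6 DMSO peaks alone had a median of 74.9%, beside 72.1% for all DMSO promoter peaks.

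Other genes of the pathway were taken from lists based on textbook roles. Of 11 other BCL2 family genes, promoter peaks were found at 4 with DMSO, at 3 with AMG510, at 1 with trametinib and at 0 in IgG. These are 36.4%, 27.3%, 9.09% and 0%, beside 24.2%, 15.3%, 11.8% and 0.559% of all genes. BCL2L2, which encodes the anti-apoptotic BCL-W, had one in all 3 c-MYC libraries, with 24 tags (15.4 to 35.7) in DMSO, 16 (9.15 to 26.0) in AMG510 and 15 (8.40 to 24.7) in trametinib, at a start it shares within 1 kb with PPP1R3E. BOK, an effector-like member, and HRK, a BH3-only member, had one in DMSO and AMG510, each with 16 tags in DMSO and with 11 and 12 tags in AMG510. The AMG510 peak at BOK did not overlap that in DMSO. Of 19 genes of the mitochondrial pathway, DMSO had such a peak at 9, AMG510 at 4, trametinib at 5 and IgG at 0, or 47.4%, 21.1%, 26.3% and 0%, beside the same shares of all genes. HTRA2, a mitochondrial protease, and ENDOG, a mitochondrial nuclease, had one in each c-MYC library. HTRA2 held 16 tags in DMSO, 10 in AMG510 and 19 in trametinib, near the start of AUP1 as well, with an AMG510 peak that did not overlap that in DMSO, and ENDOG held 17, 14 and 13.

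Other pathway genes differed in where they were called. VDAC1, a channel of the outer mitochondrial membrane, held 35 tags (24.4 to 48.7) in DMSO and 21 (13.0 to 32.1) in trametinib. CASP8, the initiator caspase that cleaves BID, had 17 tags in DMSO and 10 in trametinib. XIAP, a caspase inhibitor, had 12 tags in DMSO and 8 in AMG510, in peaks that did not overlap. BIRC5, which encodes survivin, was called in both drug libraries and not in DMSO, with 18 tags (10.7 to 28.4) in AMG510 and 17 (9.90 to 27.2) in trametinib. The smallest pileup that could be called was not worked out for genes of these lists. A missing call at them is therefore not read as a gain or a loss. The genes for the core of the apoptosome, APAF1, CYCS and CASP9, had no promoter peak in any library.

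**Figure D4:**
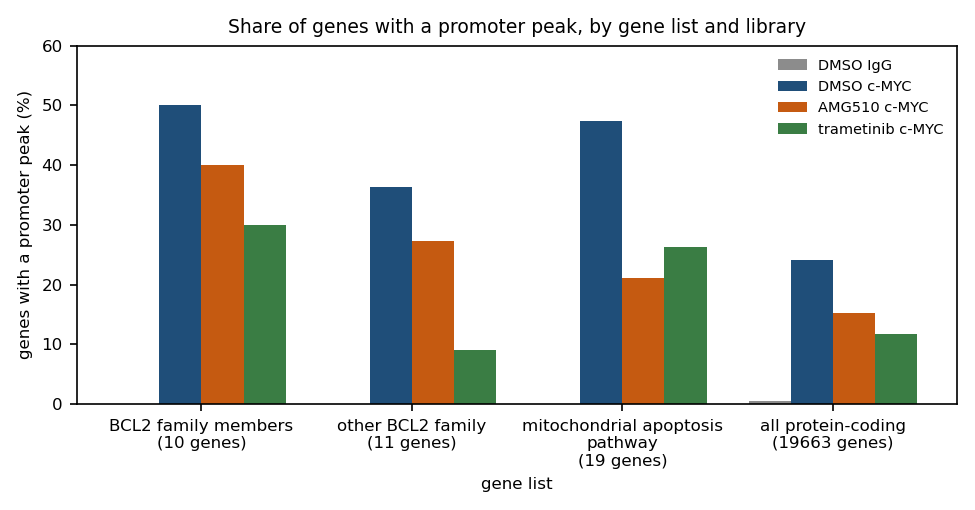
Share of genes with a promoter peak (y axis, percent) in the 10 BCL2 family genes examined, 11 other family genes, 19 genes of the mitochondrial pathway and all 19663 protein-coding genes, by library. In DMSO the bars stand at 50%, 36.4%, 47.4% and 24.2%, and the IgG bars are at 0 for the 3 short lists.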

How the data were processed

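The authors' reads were paired, trimmed (Trimmomatic 0.39) and mapped to GRCh38 (bwa 0.7.17), and duplicates were removed with Picard. Peaks were called per library with MACS2 2.2.7.1 defaults, and those on the ENCODE exclusion list were dropped; whether IgG served as control is not given in the sources used here. The deposited lists give, per peak, a score (−log10 q-value times 10), a fold enrichment ratio, and −log10 values of the p-value and of the q-value at the summit, all computed by the authors. The fold enrichment and p-value were solved for a whole-number summit pileup and a background (100% of peaks matched within 0.001 on the −log10 scale, tested on simulated data). Depth was derived from the genome-wide background, the shortest peak width and a genome size of 2700000000 bp. Groups came from the sample titles. Genes and transcripts were those of GENCODE version 44, counted by symbol without mitochondrial genes. Peaks of different lists were matched where they shared 1 bp or more, taking the nearest summit. Python 3.11.15, pandas 2.3.3 and pysam 0.24.0 were used. All 10 genes were named, together with genes of the 2 pathway lists that had a promoter peak in at least 2 c-MYC libraries and protein-coding neighbours at a counted peak. FTL, GGNBP1, APAF1, CYCS, CASP9 and noncoding neighbours were named after their values were seen. The genes and lists were chosen with earlier results of these data known.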

Additional observations from a re-analysis of the deposited data

Results flagged for a closer look

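At BCL2L11 the fold enrichment relative to DMSO had opposite signs under the inhibitors, with a log2 ratio of −0.57 in AMG510 and 0.10 in trametinib. The difference was not tested, since each treatment had 1 library. The summit pileups, 21 tags in AMG510 and 34 in trametinib against 42 in DMSO, were both below DMSO. The local background, 3.14 tags in AMG510 and 3.15 in trametinib against 4.44 in DMSO, was lower in both drug libraries, and its part in the result was not tested.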

How the results depend on the processing

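No paired analysis was possible because the groups hold 1 library each, which also leaves none to drop. Alternatives gave 103 values for 25 results, of which 75 stayed within 1.5 times the reported count or within the counting interval, 27 moved further and 1 changed sign. The 75 include IgG counts of 0, which could not have changed under a stricter setting. A fold enrichment above 5 left promoter peaks at 3 genes in DMSO, 2 with AMG510 and 1 with trametinib, and 5, 2 and 1 peaks in or within 10 kb of the genes, at 2 genes in AMG510 and 1 in trametinib. A score above 60 left 3, 1 and 1 genes with a promoter peak, and 5, 1 and 1 peaks in or near 4, 1 and 1 genes. A flank of 50 kb gave 24 peaks in DMSO, 18 in AMG510, 6 in trametinib (5 genes) and 3 in IgG (3 genes), and the gene body alone gave 5 peaks at 4 genes in DMSO. Under these thresholds and flanks, the share of all genes was computed only for promoter peaks at a fold enrichment above 5. The other counts are thus not set against a background. Counting CACGCG as well gave 2 promoter peaks with a motif in AMG510 and 2 in trametinib. These are likewise not set against the share of all promoter peaks with either motif. The trametinib log2 ratio at BCL2L11 was −0.30 on the pileup and 0.10 on the fold enrichment. The fold enrichment ratio and scaling by extension length were added after the data were seen. Moves under a stricter threshold or another flank follow from the smaller or larger set of peaks, and other causes were not tested.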

Other observations

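The share of all protein-coding genes with a DMSO promoter peak rose with the number of canonical E-boxes within 1 kb of the canonical TSS up to 3 and was lower again at 4 or more. It was 19.8% of 13915 genes with 0 E-boxes, 32.2% of 4486 with 1, 44.4% of 1030 with 2, 49.4% of 180 with 3 and 40.4% of 52 with 4 or more. BAX and PMAIP1, without a promoter peak in any library, stand at opposite ends of this scale, with 4 and 0 E-boxes. The relation was looked at after the BAX promoter had been seen, and genes that share a start are not independent.

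All 3 c-MYC libraries shared a promoter peak at 17.6% of the 6235 genes with one in any of them, in DMSO alone at 34.3%, in AMG510 alone at 13.3% and in trametinib alone at 8.18%. Of the 6 BCL2 family genes with a promoter peak, these groups held 3, 2, 1 and 0.

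Per megabase of gene with its 10 kb flanks, the 10 genes held 16.4 DMSO peaks, 11.5 AMG510 peaks, 4.91 trametinib peaks and 0 IgG peaks, and all protein-coding genes 4.77, 4.42, 2.53 and 0.983. The regions of the 10 genes come to 611 kb, so these values rest on 10, 7 and 3 peaks.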
